A study of Mus musculus with 5 samples.

Results

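In the E13.5 mouse pancreas, 384 REST-bound sites lay at or near the start of a protein-coding gene. They were chosen in 2 steps from lists of ChIP-seq peaks. Overlapping peaks of 5 libraries were merged into 1849 sites on assembled chromosomes, and 1183 of these held a peak in both E13.5 libraries. A site was promoter-proximal when its interval came within 5 kb of an annotated protein-coding transcription start, in the mm9 genome build with the GENCODE vM1 annotation. The 799 other sites of both E13.5 libraries served as comparison, 331 of them distal intragenic and 468 distal intergenic. The 3 sites just inside the limit lay 4973 bp from a start of Cacng5, 4946 bp from 2310047B19Rik and 4935 bp from Gripap1, with mean score percentiles of 68.6, 99.5 and 43.4. The 3 sites just outside it lay 5078 bp from Atp2b2, 5115 bp from March9 and 5119 bp from Rpl30-ps8, with percentiles of 41.2, 36.1 and 24.6.

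REST was immunoprecipitated with the mouse monoclonal antibody 12C11 from whole pancreas of untreated wild-type embryos on a mixed strain background with C57BL/6. Both stages of the study are used, E13.5 with 2 libraries (A and B, each a pool of 4 to 6 pancreases) and E18.5 with 3 libraries (A, B and C, each a pool of 3 to 4). A whole organ holds epithelial, mesenchymal, endothelial and neural cells together, and peaks from these cells cannot be told apart. Each library gave a list of peaks with a score, and the read depth behind a list is unknown, so a missing peak means only that none was called.

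REST is a zinc-finger repressor that binds the RE1 element and brings histone-modifying corepressors to nearby genes. Many of its targets are genes of neurons, such as those for channels and synaptic proteins. Pancreatic endocrine cells share part of the neuronal programme, such as regulated secretion and proneural transcription factors.

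The elements under the sites are shown first, since the form of the RE1 is a feature in which sites at starts differed from other sites. The consensus derived from all 1183 sites was TCAGCACCATGGACAGCNCC, with 19 informative positions. It was searched on both strands in the 500 bp at the centre of each site, and a match with at most 4 mismatches is called a canonical RE1. Its left arm TCAGCACC and right arm GGACAGC lie 2 bp apart. Sites with both arms 7 to 11 bp apart, with at most 1 mismatch in each, are said to hold a split RE1. The sequences are from the mm9 reference genome, 5′ to 3′, and the strand is that of the element. Capitals mark bases that match the consensus, or in a split element the arms. Position 18 of the consensus is N, so its base is always in lower case and is not a mismatch. The first group holds the canonical elements of the 10 sites with the highest scores, except that of Vstm2l, which stands in the second group.
Scrt1, chr15:76352715-76352734, plus strand: gCAGCACCgcGGcCAGCgCC
Npas4, chr19:4989161-4989180, plus strand: TCAGCACCgcGGACAGCtCC
Golga7b, chr19:42330454-42330473, plus strand: TCAGCACCgTGGACAGCaCg
2310047B19Rik, chr9:21754945-21754964, plus strand: TCAGgACCgTGGACAGCaCC
Gm16532, chr7:6362985-6363004, plus strand: TCAGCACCAaGGACAGCgtg
Tas1r3, chr4:155233640-155233659, minus strand: TCAGCACCAcGGcCAGCgCC
Barhl1, chr2:28771785-28771804, plus strand: cCAGCACCgTGGACAGCgCC

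The second group holds the elements closest to the consensus. Of the 10 sites with only 1 mismatch, the 5 with the highest scores are shown.
Vstm2l, chr2:157739009-157739028, minus strand: TCAGCACCAcGGACAGCtCC
Prmt8, chr6:127717992-127718011, minus strand: TCAGCACCAgGGACAGCgCC
Col5a3, chr9:20617633-20617652, minus strand: TCAGCACCATGGACAGggCC
Nrxn2, chr19:6502786-6502805, minus strand: TCAtCACCATGGACAGCgCC
Vwc2l, chr1:70772340-70772359, minus strand: TCAGCACCAcGGACAGCgCC

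The third group holds elements at genes of endocrine cells and their secretory granules.
Neurod1, chr2:79294484-79294503, minus strand: aCgGCACCATGGACAGCtCC
Chga, chr12:103793449-103793468, plus strand: TCAGCACCtcGGACAGCaCC
Vgf, chr5:137506144-137506163, minus strand: TCAGCACgcTGGACAGCgCC

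The last group shows split elements, in which both arms are intact and a longer stretch separates them.
Insm2, chr12:56701335-56701359, plus strand: TCAGCACCcgcaggctccGGACAGC
Celsr3, chr9:108729374-108729399, plus strand: TCAGCACCacgtgctgtgaGGACAGC
Scg3, chr9:75531753-75531775, minus strand: TCAGCACCcgcggggcGGACAGC
Zdhhc22, chr12:88325296-88325318, plus strand: TCAGCACCctgccgcgGGACAGC

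A canonical RE1 was present at 241 of the 384 promoter-proximal sites (62.8%; exact 95% interval 57.7 to 67.6), against 74.3% of all sites of both E13.5 libraries. The share was lower than at distal sites, of which 638 of 799 (79.8%) held one. The odds ratio was 0.426 (95% interval 0.322 to 0.562), with a Benjamini-Hochberg adjusted p of 1.22e-09 over 18 two-sided Fisher exact tests. It was also lower than at distal intragenic sites alone (83.4%, adjusted exact p = 1.22e-09) and at distal intergenic sites alone (77.4%, adjusted exact p = 4.42e-06). Windows of the same length 10 kb from the promoter-proximal sites, toward higher genome coordinates, held a canonical RE1 in 0.521%, or 2 of 384. Sites are not replicates of a stage, so this and the other tests over sites describe these libraries only.

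A split RE1 without a canonical one was found at 72 further sites, and 71 sites held neither. Among the 143 sites without a canonical RE1, both arms lay 8 bp apart at 26 sites and 9 bp apart at 22. Gaps of 7, 10 and 11 bp were found at 12, 10 and 5 sites. Close pairs also occurred, with gaps of 0, 1 and 2 bp at 4, 5 and 4 sites and of 4 bp at 1. These close pairs are not counted as split. No site had the arms 3, 5, 6 or 12 bp apart. In the windows 10 kb from these 143 sites, no pair of arms lay 7 to 11 bp apart. The split form made up 50.3% of promoter-proximal sites that lacked a canonical RE1 and 41.0% of such distal sites (66 of 161), a difference that did not pass the test (odds ratio 1.46, 95% interval 0.904 to 2.36, adjusted exact p = 0.129 over 12 Fisher exact tests). With both forms counted, 81.5% of promoter-proximal and 88.1% of distal sites held an RE1 (odds ratio 0.595, 95% interval 0.42 to 0.845, adjusted exact p = 0.00327). The range of 7 to 11 bp was set after the spacings were seen.

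**Figure D1:**
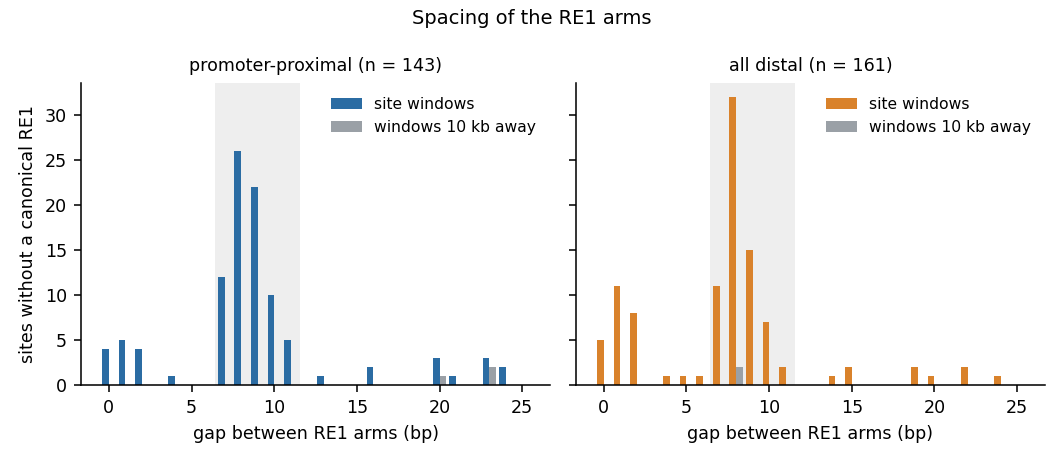
The bars count sites without a canonical RE1 by the gap in bp between the left and right RE1 arms, for 143 promoter-proximal sites (left) and 161 distal sites (right), with windows 10 kb away in grey. The shaded range runs from 7 to 11 bp, and the tallest promoter-proximal bars are 26 sites at 8 bp and 22 at 9 bp.

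The canonical elements also differed in composition. Promoter-proximal elements matched the consensus at position 9 in 51.9% and at position 10 in 41.5%, while distal elements did so in 62.1% and 56.7%. These positions lie between the arms, counted from 1 at the 5′ end of the element. A CG dinucleotide at positions 10 and 11, as in the Npas4 and Chga elements above, was present in 97 of 241 promoter-proximal elements (40.2%) and in 151 of 638 distal ones (23.7%). This difference passed the test (odds ratio 2.17, 95% interval 1.56 to 3.01, adjusted exact p = 8.81e-06 over the same 12 Fisher exact tests), and it was smaller among sites outside CpG-rich sequence, at 33.3% against 23.6% (adjusted exact p = 0.0231). Both tests of the dinucleotide were chosen after the position shares were seen. The shares differed by less at every other position than at position 10. Among canonical elements, 75.5% of promoter-proximal and 76.6% of distal ones had at most 3 mismatches.

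The sites were concentrated at the start itself. The median distance from the centre of a site to the nearest start was 734.5 bp, and 116 sites (30.2%) contained the start. Centres lay within 250 bp of a start at 111 sites, within 500 bp at 165, within 1000 bp at 222 and within 2000 bp at 287. The density was 212 sites per kb in the 250 bp upstream of the start and 232 in the 250 bp downstream. From 2000 bp outward it was 12.8 sites per kb upstream and 14.2 downstream. More centres lay downstream of the start (220) than upstream (164), with an exact two-sided binomial p of 0.00494. The share was 57.3% downstream, and with 1 start per gene it was 61.5% (208 against 130, exact p = 2.60e-05). Among the 241 sites with a canonical RE1 it did not pass the test, at 55.2% from the site centre (133 against 108, exact p = 0.122) and 56.0% from the RE1 itself (135 against 106, exact p = 0.0711). The element had no preferred direction, since 121 of 241 canonical RE1s read on the strand of the gene and 120 on the other (exact binomial p = 1). By annotation 152 centres fell in introns, 129 outside genes, 59 in 5′ UTRs, 37 in coding exons and 7 in 3′ UTRs. Starts include those of every protein-coding transcript, so an intron can hold the start of a shorter isoform, as at Nrxn2.

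**Figure D2:**
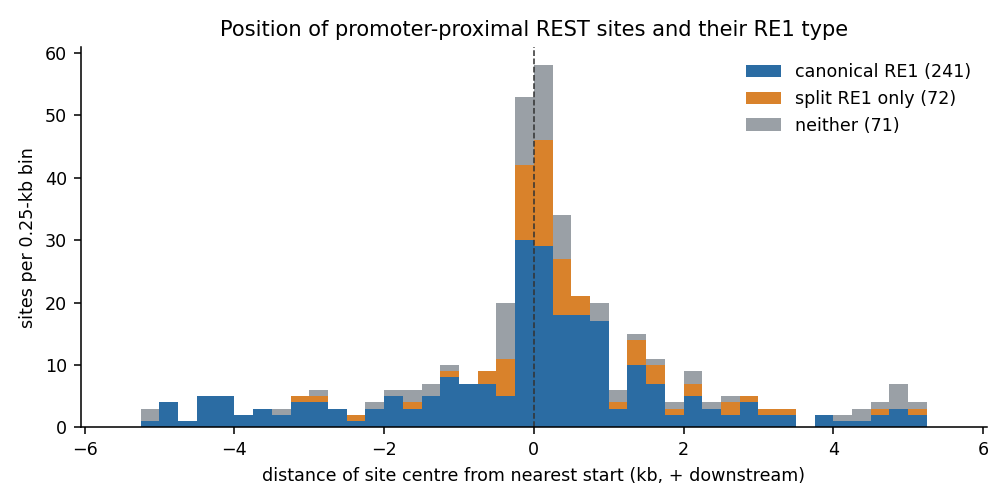
The stacked bars count sites per 0.25-kb bin by the distance of the site centre from the nearest protein-coding start in kb, with downstream positive, for sites with a canonical RE1 (241), a split RE1 only (72) or neither (71). Sites pile up within 500 bp of the start (165 of 384), and that is also where most split sites and most sites with neither form lie.

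Sites at the start differed from those farther out. Of the 165 sites centred within 500 bp of a start, 49.7% held a canonical RE1, while 72.6% of the 219 others did (odds ratio 0.374, 95% interval 0.238 to 0.584, adjusted exact p = 2.00e-05, two-sided Fisher exact test). With split elements counted the shares were 76.4% and 85.4% (adjusted exact p = 0.0442). The sites at the start were more often above the median score (73.9% against 57.5%, adjusted exact p = 0.00284) and more often called at E18.5 (63.0% against 50.7%, adjusted exact p = 0.0257).

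Base composition differed most between the classes, which were themselves set by distance from a start. A window was called CpG-rich when GC was at least 50% and CpG was at least 0.6 of the number its bases would give. Promoter-proximal sites were CpG-rich in 132 of 384 cases (34.4%), against 43.0% of the 500-bp windows on the first start of all protein-coding genes. Those windows are centred on a start, while the sites lie up to 5 kb from one. Distal sites were CpG-rich in 9 of 799 cases (1.13%; odds ratio 45.8, 95% interval 22.97 to 104, adjusted exact p = 3.30e-59, Fisher exact test). The part that nearness to a start alone has in this difference was not tested. Within 500 bp of the start the share was 57.6%, and farther out 16.9% (adjusted exact p = 1.03e-15). CpG-rich promoter-proximal sites held a canonical RE1 less often than the others, at 53.0% and 67.9% (adjusted exact p = 0.0108). Outside CpG-rich sequence the promoter-proximal share of canonical RE1 was still lower than the distal one (67.9% against 80.4%, adjusted exact p = 7.72e-05). In CpG-rich sequence alone it was 19.7 percentage points higher than at the 9 distal sites, a difference that did not pass the Fisher exact test (adjusted exact p = 0.314).

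Most promoter windows with a match to an RE1 had no called peak. Of the 500-bp windows on the first start of 22354 protein-coding genes, 0.702% (157) held a canonical RE1 and 0.868% (194) a split one. A site of both E13.5 libraries overlapped 41 of the 157 (26.1%) and 25 of the 194 (12.9%). With any of the 5 libraries the numbers were 43 and 28. For scale, windows 10 kb from the promoter-proximal sites, toward higher genome coordinates, held the canonical form in 0.521% and the split form in 0.26%. The canonical share rests on 2 of 384 windows, and its exact interval, 0.0631% to 1.87%, holds the 0.702% of promoter windows. At the same offset it was 0.254% for all 1183 sites and 0.125% for the 799 distal sites. The mismatch limit was chosen to keep such windows under 1%. They therefore do not show how many promoter matches arise by chance. Chance matches were not told apart from working elements, so a match without a peak need not be an unbound RE1.

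Promoter-proximal sites carried higher scores. Scores were turned into percentiles within each library, with 100 the highest, because their scale across libraries is not known. The median score was 19 in E13.5 A and 23 in E13.5 B, against 14 and 17 at distal sites. In E18.5 A, B and C the medians of the called sites were 8, 8 and 12, against 7, 6 and 10. The mean E13.5 percentile had a median of 66.0 at promoter-proximal sites and of 49.6 at distal ones. It was above the median of all 1183 sites, 54.3, at 64.6% of promoter-proximal and 42.9% of distal sites (odds ratio 2.42, 95% interval 1.87 to 3.15, adjusted exact p = 7.30e-12, Fisher exact test). The difference was present with a canonical RE1 (67.6% against 45.6%) and without one (59.4% against 32.3%). The 2 E13.5 libraries ordered the 384 sites alike, with a Spearman rho of 0.793 across sites, which share their sequence and are given here as a description.

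**Figure D3:**
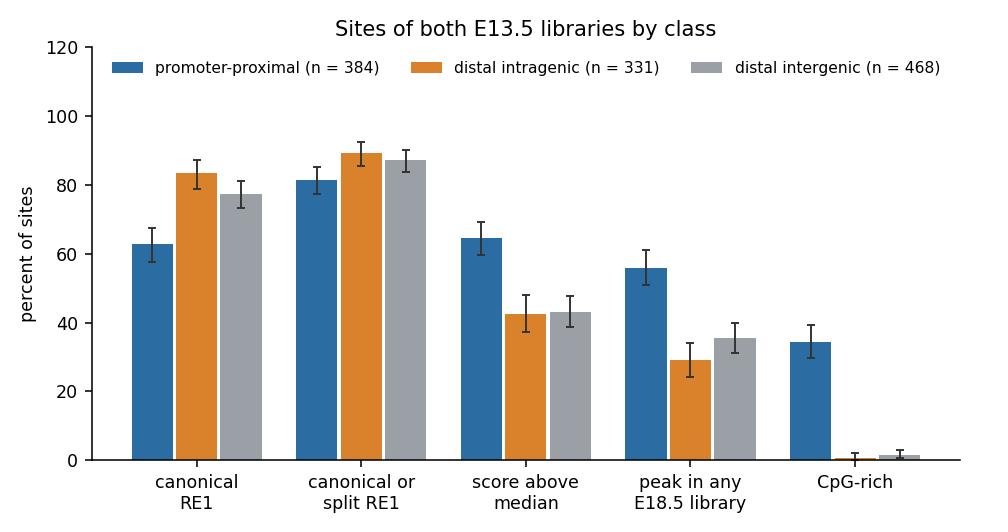
Bars give the percent of sites with each feature for promoter-proximal (n = 384), distal intragenic (n = 331) and distal intergenic (n = 468) sites, with exact 95% binomial intervals as error bars. Promoter-proximal sites were lowest for a canonical RE1 (62.8%) and highest for a score above the median (64.6%), a peak at E18.5 (56.0%) and CpG-rich sequence (34.4%).

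The 10 highest-scoring sites show the range of genes and positions. The top site lay 157 bp upstream of Scrt1, a Snail-family zinc-finger repressor of neurons. Its scores were 70 and 107 in E13.5 A and B and 21, 68 and 51 in E18.5 A, B and C. The second lay in the first 1 kb of Npas4, an activity-dependent transcription factor of neurons, 801 bp downstream of the start. Npas4 scored 65 and 110 at E13.5, then 35, 16 and 24 at E18.5. Both sites were thus called in every library, and the order of the E18.5 scores differed between them.

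The 5′ UTR of Golga7b, a partner of palmitoyltransferases, held a site that scored 66 and 85 at E13.5, then 12, 10 and 24 at E18.5. The site 5.23 kb upstream of 2310047B19Rik had the highest score of any peak in E13.5 A, 73, with 76 in E13.5 B and 16, 19 and 26 at E18.5. Cacng2, also called stargazin, an auxiliary subunit of AMPA receptors, scored 51 and 95 at E13.5, then 30, 26 and 28 at E18.5. Its site covered the start and was the highest-ranked one with neither form of RE1, the closest match having 7 mismatches in sequence of 71.0% GC.

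Vstm2l scored 55 and 77 at E13.5, then 13, 11 and 21 at E18.5, at a site 1.23 kb upstream of its start. Insm2, a zinc-finger gene of the insulinoma-associated family, scored 61 and 64 at E13.5, then 21, 16 and 23 at E18.5. The Insm2 site lay in the coding exon and held the split element shown above. Gm16532 scored 44 and 89 at E13.5, then 28, 9 and 28 at E18.5.

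Tas1r3, the shared subunit of the sweet and umami taste receptors, scored 57 and 60 at E13.5, then 7 and 9 in E18.5 A and B. No peak was called there in E18.5 C, which made it the only one of the 10 sites not called in all libraries. Its centre lay in the 3′ UTR, 3.82 kb downstream of the start. Barhl1, a homeobox gene of neural development, scored 53 and 59 at E13.5, then 22, 22 and 23 at E18.5.

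The 5 highest-ranked sites without a canonical RE1 were at Cacng2, Insm2, Celsr3, Scg3 and Ptprn2. Celsr3, an atypical cadherin of axon guidance, scored 46 and 57 at E13.5, then 16, 16 and 23 at E18.5. Scg3, secretogranin III of dense-core granules, scored 42 and 46 at E13.5, then 5, 5 and 13 at E18.5, with its split element 39 bp downstream of the start. Ptprn2 codes for a granule membrane protein of the receptor phosphatase family. It scored 39 and 48 at E13.5, then 5, 22 and 22 at E18.5, and held neither form.

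The 5 high-scoring sites whose element had 1 mismatch did not behave alike at E18.5. Prmt8, an arginine methyltransferase of neurons, scored 32 and 54 in E13.5 A and B, and 16, 12 and 20 in E18.5 A, B and C. Nrxn2, a presynaptic adhesion protein, scored 24 and 30 at E13.5, and 8 and 9 in E18.5 A and B. Vwc2l scored 21 and 33 at E13.5, and 6 in E18.5 B only. Col5a3, a fibrillar collagen chain, scored 29 and 35 at E13.5 and was called in no E18.5 library. Together with Vstm2l, they ranged from none to all 3 of the E18.5 libraries.

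A pair of sites stood apart from the rest and was picked out after its values were seen. Both lay within 2 kb of the starts of Gm10800 and Gm10801 on chromosome 2, were called in all 5 libraries and were no closer to the consensus than 9 mismatches, in sequence of 36.4% and 37.6% GC. The first scored 34 and 60 at E13.5, then 69, 32 and 46 at E18.5, and was the only promoter-proximal site in the top 1% of E18.5 A. The second scored 34 and 45, and 46, 20 and 43. Their scores as deposited were higher in E18.5 A than in E13.5 A, unlike those of the 10 sites above. Both stay among the 384 sites. No region was removed here for repeated sequence, and whether REST itself bound at this pair was not tested.

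At least 1 E18.5 library had a peak at 215 of the 384 sites (56.0%; interval 50.9 to 61.0), against 40.3% of all sites of both E13.5 libraries. At distal sites the share was 32.8%, or 262 of 799 (odds ratio 2.61, 95% interval 2.01 to 3.37, adjusted exact p = 1.33e-13, Fisher exact test). Each E18.5 library showed the same order. In E18.5 A 38.0% of promoter-proximal and 23.7% of distal sites had a peak (adjusted exact p = 5.73e-07), in E18.5 B 40.6% and 15.3% (adjusted exact p = 3.89e-20), and in E18.5 C 29.4% and 12.8% (adjusted exact p = 2.98e-11). By number of libraries, 80 sites were called in 1 E18.5 library, 70 in 2 and 65 in all 3, and 169 in none. At least 2 E18.5 libraries called 35.2% of promoter-proximal and 13.3% of distal sites, against 20.4% of all sites of both E13.5 libraries.

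The score at E13.5 moved with this share. In the lowest quintile of E13.5 percentiles 13.3% of promoter-proximal and 7.77% of distal sites had an E18.5 peak, and in the highest quintile 92.9% and 87.2%. The middle quintile was almost level, with 35.2% and 33.9%, while the shares were 23.3% and 10.8% in quintile 2 and 64.6% and 49.4% in quintile 4. Above the median score the shares were 75% and 57.7% (adjusted exact p = 2.08e-05, Fisher exact test). Below it they were 21.3% and 14.04% (odds ratio 1.66, 95% interval 0.979 to 2.76, adjusted exact p = 0.0446), and against distal intergenic sites alone the difference below the median did not pass (adjusted exact p = 0.217). The part of the score in the difference was otherwise not tested.

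Base composition moved with the share too. CpG-rich promoter-proximal sites had an E18.5 peak in 73.5% and the others in 46.8% (odds ratio 3.14, 95% interval 1.95 to 5.14, adjusted exact p = 3.26e-06, Fisher exact test), and their median E13.5 percentiles were 80.9 and 59.6. Among sites outside CpG-rich sequence the promoter-proximal share was 46.8% and the distal one 32.7% (adjusted exact p = 7.49e-05). The presence of a canonical RE1 made no difference that passed the test, with 58.1% called at E18.5 with it and 52.4% without (odds ratio 1.26, 95% interval 0.811 to 1.95, adjusted exact p = 0.316).

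**Figure D4:**
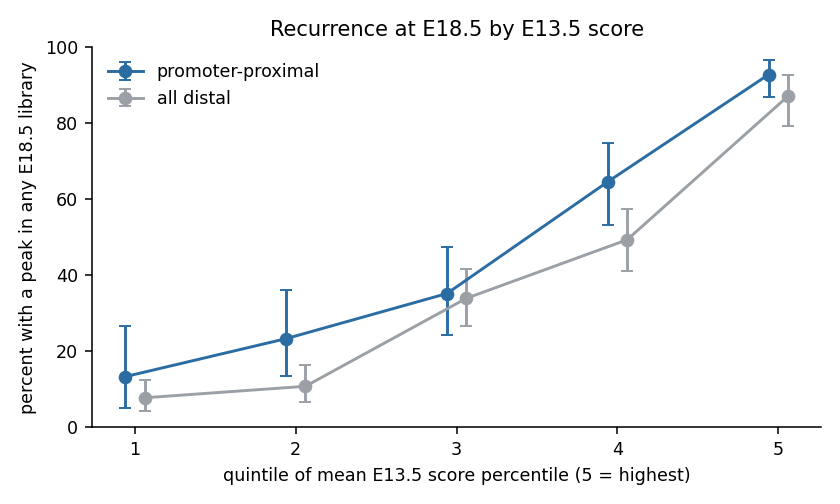
The percent of sites with a peak in any E18.5 library is plotted by quintile of the mean E13.5 score percentile (5 is the highest), for promoter-proximal and all distal sites, with exact 95% binomial intervals. Both rise with the score, from 13.3% to 92.9% and from 7.77% to 87.2%, and they are nearly level in the third quintile.

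Over whole peak lists, promoter-proximal peaks were 30.2% and 32.1% of peaks in E13.5 A and B, and 31.9%, 44.2% and 53.8% in E18.5 A, B and C. The lists held 1396, 1329, 530, 414 and 223 placed peaks in the same order. E18.5 A lay within the range of the E13.5 libraries, and the share was highest in the shortest list. The mean was 31.2% ± 1.34 (SD, n = 2) over the E13.5 libraries, and over the E18.5 libraries it was 43.3% ± 10.99 (SD, n = 3). The exact two-sided permutation test over libraries gave p = 0.4, where 10 splits allow no p under 0.2. With only the 226 top-scoring peaks of each library, the means were 51.3% and 54.7% (exact permutation p = 0.6). List length and stage cannot be told apart here.

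The 384 sites lay within 5 kb of the starts of 394 protein-coding genes, or 1.76% of 22367. Of these genes, 224 (56.9%) had a site called in at least 1 E18.5 library, 145 in at least 2 and 69 in all 3. Starts of 2 or more genes were near 30 sites. Genes with 2 or more sites numbered 22, among them Chga, Neurod1, Lhx3, Nrxn2 and Vgf. Zdhhc22, a palmitoyltransferase gene, was the only one with 3. Its sites lay 174 bp downstream and 526 and 1557 bp upstream of the start, and held a canonical RE1, a split RE1 and neither. They scored 23 and 24, 12 and 24, and 15 and 16 in E13.5 A and B, and none was called at E18.5.

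The genes were then set against 19 lists by function, and 113 of the 618 genes on the lists had a promoter-proximal site. Shares are given beside the 1.76% of all protein-coding genes, with no test. A site near a start does not show that the gene was regulated, since no RNA was used here.

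The list of granins and granule cargo, most of them proteins of dense-core secretory granules, had the highest share, with 11 of 14 genes (78.6%). Besides Scg3 and Ptprn2, Vgf scored 33 and 50 at E13.5, then 11, 13 and 19 at E18.5, at a site centred 2 bp from the start. Vgf codes for a neuropeptide precursor. Chgb, chromogranin B, scored 26 and 61 at E13.5, then 13 and 11 in E18.5 A and C, with no peak called in B. The other genes were Chga, Scgn, Ptprn, Scg2, Pcsk2, Resp18 and Pcsk1, and 9 of the 11 had a site called in some E18.5 library, against 56.9% of all genes with a site. Chga, chromogranin A, scored 25 and 32 at E13.5, then 13 and 6 in E18.5 A and B at the site 251 bp downstream of the start. Its second site, 4.30 kb upstream, scored 24 and 22, with a score of 5 in E18.5 B only. Canonical RE1s were present at 6 of the 11 genes' best-scoring sites and split ones at 2 more, against 62.8% and 81.5% of all promoter-proximal sites for the canonical form and for either form.

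Endocrine transcription factors had a site at 6 of 29 genes (20.7%), and their scores spread widely. Insm2 and Neurod1 had percentiles of 98.9 and 94.8. Neurod1, a basic helix-loop-helix factor of endocrine and neural differentiation, scored 39 and 40 at E13.5, then 9, 7 and 12 at E18.5 at a site in its coding exon. A weaker Neurod1 site, 4.06 kb upstream, scored 14 and 12, with 5 in E18.5 A only. Insm1, a zinc-finger factor needed for endocrine differentiation, scored 17 and 11 and was called only in E18.5 A, with a score of 6. Myt1, a zinc-finger factor induced in endocrine progenitors, scored 11 and 11 and was not called at E18.5. Neurog3, which starts endocrine differentiation, and St18 completed the list. Both are named here because the list is short. Neurog3 scored 7 and 13 with a centre 5.14 kb from the start and was not called at E18.5. St18 scored 6 and 10, with a score of 3 in E18.5 A only. The best site of 4 of the 6 genes was below the median score of all 1183 sites, while 64.6% of all promoter-proximal sites were above it.

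Proneural and neuronal transcription factors had a site at 8 of 35 genes (22.9%). After Scrt1 and Npas4, the LIM homeobox gene Lhx3 scored 39 and 50 at E13.5, then 9, 4 and 15 at E18.5. Scrt2, a paralog of Scrt1, scored 27 and 38 at E13.5, and 40 and 23 in E18.5 B and C. The list of islet hormones and receptors, which also holds neuropeptide and serotonin genes, had 4 of 25 (16%). These were Tph2, an enzyme of serotonin synthesis, the neuropeptide genes Crh and Vip, and Sst, the somatostatin gene. Of these, only Sst codes for a hormone of islet cells. Tph2 scored 33 and 31 at E13.5, and Sst 12 and 11 with no peak called at E18.5.

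Exocytosis was represented by 10 of 41 genes of SNARE fusion, priming and Rab3 (24.4%), 4 of 22 of synaptic vesicle membrane (18.2%) and 3 of 22 synaptotagmins (13.6%). Snap25, a SNARE protein of the plasma membrane, scored 54 and 56 at E13.5, then 16, 15 and 21 at E18.5. Its RE1 had 4 mismatches. The priming factor Unc13a scored 34 and 41, Rph3a 24 and 40, and Rims3 22 and 35 at E13.5. Svop, Slc17a6, Slc18a1 and Syp made up the vesicle genes, with mean percentiles from 24.6 to 77.6. Syt6, Syt14 and Syt4 had percentiles of 77.5, 68.6 and 60.3.

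Ion channels and receptors were present in 4 lists. Potassium channels had 12 of 95 genes (12.6%), among them Kcnh6, which scored 26 and 33 at E13.5, and Kcnk12, which scored 27 and 31. The list of calcium and sodium channels, which counts the Cacng genes and so the AMPA receptor subunit gene Cacng2, had 7 of 41 (17.1%). After Cacng2 the highest were Cacng3, Cacna1b and Cacng5. Glutamate receptors and postsynaptic scaffolds had 9 of 42 (21.4%). Dlgap3, a scaffold, scored 37 and 46, and Grin1, the shared NMDA receptor subunit, 21 and 57. Dlgap1 and Grm2 followed.

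GABA, glycine and nicotinic receptors had 8 of 42 (19.0%). Glra1, a glycine receptor subunit, scored 44 and 70 at E13.5, and Chrnb2 and Gabbr2 had percentiles of 91.9 and 90.5. Of the 8, 6 had a site called at E18.5, against 56.9% of all genes with a site.

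Neural splicing and RNA-binding factors had 9 of 21 genes (42.9%), the second highest share. Celf6 scored 35 and 50 at E13.5, then 4, 19 and 23 at E18.5. Srrm3 and Srrm4, splicing activators of neural microexons, scored 26 and 37, and 24 and 29, and neither was called at E18.5. Celf4 scored 21 and 34. Of the 9, 4 had a site called in an E18.5 library, against 56.9% of all genes with a site.

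Axon guidance and neural adhesion had 12 of 69 (17.4%), among them Celsr3, Pcdh8 and Nrxn2. Neurofilaments and microtubules had 5 of 23 (21.7%): Nefh, Ina, Nefm, Stmn3 and Tubb3. JNK scaffolds, MAP kinases and Cdk5 had 5 of 22 (22.7%). Mapk8ip2 scored 33 and 35 at E13.5, Mapk8ip1 17 and 16, Mapk11 17 and 14, and the Cdk5 activator Cdk5r2 8 and 16.

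The remaining lists, for other cells of the organ, for housekeeping genes and for REST and its corepressors, held no bound gene. There was none among 25 acinar, duct and progenitor genes, 20 mesenchymal and endothelial genes, 15 housekeeping genes and 15 genes of REST and its corepressors. Exact 95% intervals reach 13.7%, 16.8%, 21.8% and 21.8%, so lists of this size do not separate 0 from the 1.76% of all genes.

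**Figure D5:**
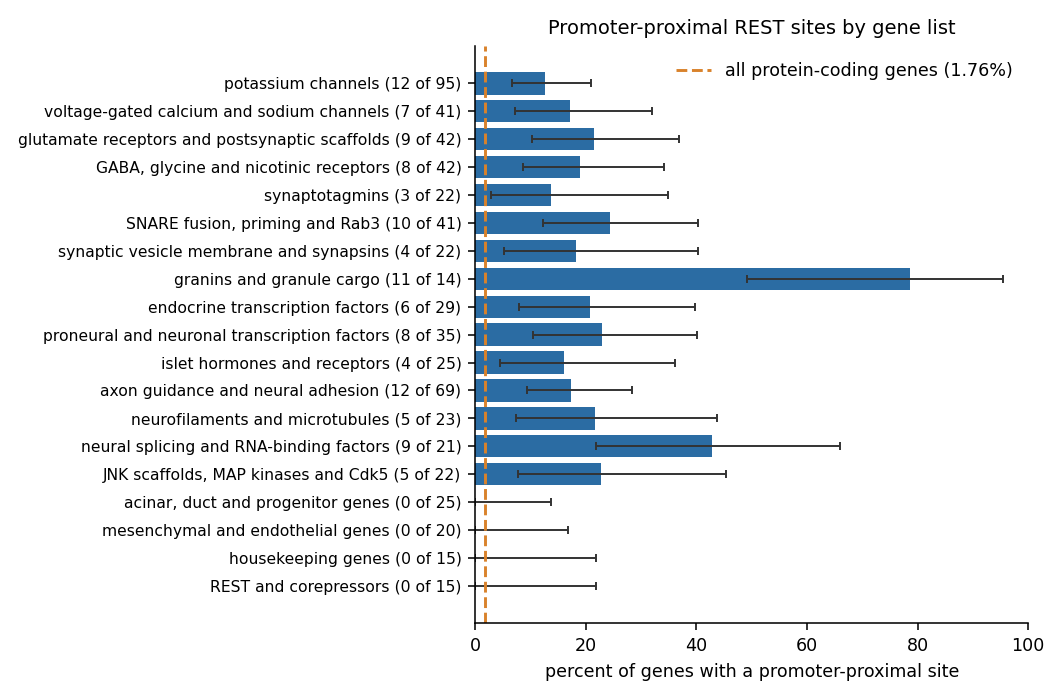
Bars give the percent of the genes of each list with a promoter-proximal site of both E13.5 libraries, with exact 95% binomial intervals, and the dashed line marks the 1.76% of all protein-coding genes. Granins and granule cargo (78.6%) and neural splicing factors (42.9%) are highest, and the 4 lists at the foot are at 0.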

How the data were processed

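Per the study's methods, the authors aligned single-end 50-bp reads to mm9 with Bowtie2 2.2.5 (1 mismatch), kept reads with MAPQ of at least 10 and ran MACS2 2.1.0 for peaks, with input DNA as control. SAMtools is also named in the processing notes. The deposited lists, 1 per library at a false discovery rate of 10% with duplicates removed, give each peak's position and a score of unstated scale. Peak ends fell within the mm9 chromosome lengths on all 21 chromosomes checked.

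Peaks overlapping by at least 1 bp were merged. Distances ran from the site interval to starts of protein-coding transcripts. The RE1 consensus was built from the sites themselves, and the 4 mismatches allowed were the most at which under 1% of windows 10 kb away matched. Fisher exact tests were adjusted by Benjamini-Hochberg over 18 tests against distal sites and over 12 others. Intervals are exact 95% binomial and cover counting error only. Python 3.11.15, SciPy 1.17.1, NumPy 2.4.6 and pysam 0.24.0 were used, and the scripts were tested on simulated data. Libraries are named as biological replicates in the labels.

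The sites and gene lists were chosen with earlier results of these data known. Genes were named by rule: the 10 sites with the highest mean E13.5 percentile, up to 4 genes per list, genes with 3 sites, the 5 closest RE1s, the 5 highest sites without one, and 3 sites on each side of the limit. Other names were chosen after their values were seen, and a few genes the rule selects are not reported here.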

Additional observations from a re-analysis of the deposited data

How the results depend on the processing

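Of 116 alternative values, 107 were classed as the same as the main result. For tested results this means the same direction and side of the threshold, which the stage difference never passed. Counts have no threshold. Those classed as the same ran from 299 to 487 sites, against 384, and from 297 to 526 genes, against 394. A limit of 1 kb in place of 5 kb left 239 sites and 240 genes, and the same number of top-scoring peaks from each library left 86 sites, since both keep fewer peaks or positions by construction. Within CpG-rich sequence, a split added after the data were seen, the difference in canonical RE1 turned to 19.7 percentage points higher than at all distal sites, 3.03 higher than at intragenic and 24.5 higher than at intergenic ones, and none of these passed the test. The cause was not tested, and there were only 9 distal sites. Of the 241 sites that hold a canonical RE1, 133 lay downstream of the start by the site centre (exact binomial p = 0.122). That setting was added after the data were seen. By the RE1 centre 135 lay downstream (exact binomial p = 0.0711). The shares were 55.2% and 56.0%, against 57.3% of all 384 sites, and why the call was lost was not tested. The excess of E18.5 peaks over distal intergenic sites below the median score was 5.16 points (adjusted exact p = 0.217). Leaving out 1 library moved the stage difference in promoter-proximal share between -17.8 and -6.87 points, the E18.5 difference between 17.1 and 27.4, the score difference between 19.6 and 21.2, and the sites to 424 or 426. No paired analysis was possible because the letters shared by the stages name different embryos. Depth limits what a missing peak means, as read totals were not used here.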

Other observations

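Promoter-proximal sites outside the shared E13.5 set looked different. Of 352 sites called in only 1 E13.5 library, 82 (23.3%; exact 95% interval 19.0 to 28.1) lay within 5 kb of a protein-coding start, and 38 of the 82 (46.3%) held a canonical RE1. Of 314 sites called in E18.5 libraries only, 39 (12.4%; interval 8.98 to 16.6) lay near a start. None of these 39 held a canonical RE1, which allows a share of up to 9.03% by the exact 95% interval, and 3 were CpG-rich. By library, 21 of the 39 were in E18.5 A, 18 in E18.5 B and 2 in E18.5 C. Only 2 were in at least 2 E18.5 libraries, near the starts of Gm10106, Gm10715, Gm10716, Gm10722, Gm11168 and Gm17535. These were counted after the data were seen and were not compared by a test.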
